A study of Mus musculus with 6 samples.

Results

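Interferon-stimulated genes are the genes that cells switch on after sensing type I interferon. A set of 43 of them was followed across 6 RNA-seq libraries of resting mouse CD8 T cells. They were taken by gene symbol as known type I interferon targets. No measured value entered that rule, but the list was drawn up with earlier results of these libraries known. All 43 were found among the 55450 genes of the count table. One further interferon-inducible gene, Xaf1, was left out of the list. The libraries came from naive CD8 T cells of the lymph node, sorted as negative for Ly6C and CXCR3. There were 3 libraries from wild-type mice of the C57BL/6 strain (WT) and 3 from Itgae-/- mice (CD103KO), which lack the integrin alpha E chain. No treatment or infection is named for either group, and age and animal numbers are not in the labels. Separate animals per library are likewise not stated, so that p-values rest on the spread among these samples, which may be technical in part. It cannot be wholly technical in WT, whose libraries differed in a Y-linked gene, as given below.

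Type I interferons bind the receptor made of IFNAR1 and IFNAR2 and activate the kinases JAK1 and TYK2. These phosphorylate STAT proteins, among them STAT2, which join IRF9 to form the complex ISGF3, and ISGF3 binds the interferon-stimulated response element in the promoters of target genes. The targets include RNA and DNA sensors, enzymes that block viral replication, the ubiquitin-like modifier ISG15, and inhibitors such as USP18 that damp the receptor. Resting T cells express many of these genes at a low level without infection, a state usually called tonic interferon signalling.

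The genotype labels were checked on Itgae. It stood at 491, 495 and 460 CPM (counts per 1000000, scaled for library composition) in the WT libraries (replicates 1, 2 and 3, the order used throughout), against 67.9, 67.9 and 61.1 CPM for CD103KO. Every CD103KO library was far below every WT library (log2 fold change -2.88, SE 0.06, adjusted p = 4.058e-08, edgeR quasi-likelihood test). Total counts were 68292475 to 94347034 per library. Xist was at 66.9 CPM in WT replicate 1 and 79.7 CPM in WT replicate 2, where the Y-linked Ddx3y had no count. In WT replicate 3 and the CD103KO libraries Xist was at 0.0272 CPM or less and Ddx3y at 47.8 to 56.2 CPM. Xist reads without Ddx3y are the pattern of female cells, and the reverse that of male cells. WT replicate 3 thus did not come from the same animals as WT replicates 1 and 2. The labels give no sex. Libraries above 1 CPM of Xist are called libraries with Xist reads below, and the others libraries without them. The CD8 T cell markers (8 of 8 tested) summed to 7873 to 8081 CPM in WT and 7825 to 8052 CPM in CD103KO, so the labelled cell type was borne out in each library. The B cell markers (6 of 6 tested) summed to 2.07 to 2.60 CPM in WT and 6.88 to 10.8 CPM in CD103KO, and 3 of the 6 passed (Cd79a, Ms4a1 and Fcer2a, adjusted p = 0.00592, 0.0268 and 0.00589, edgeR), all higher in CD103KO. Erythroid and platelet markers (4 of 6 tested, 0 passing with edgeR, Pf4 at 0) summed to 32.6 to 49.2 CPM in WT and 57.03 to 92.0 CPM in CD103KO. Both sums were higher in each CD103KO library than in any WT library, and the part of such cells in the results below was not tested. In bulk RNA, fewer cells of a type and less RNA per cell cannot be told apart.

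All 43 interferon-stimulated genes had a positive log2 fold change, higher in CD103KO than in WT, as 49.0% of all tested genes did, and 0 of the 43 passed the test between the groups. Their log2 fold changes ran from 0.04 for Irf9 to 1.23 for Ifitm3, with a median of 0.31, where the median over all 13470 tested genes was -0.0025. The adjusted p was 0.240 or more for each (edgeR quasi-likelihood test, Benjamini-Hochberg over all tested genes at 0.05), and over all tested genes 0.223% passed. At an unadjusted p under 0.05 there were 19 of the 43, all of them higher in CD103KO, against 4.53% of all tested genes in that direction. The count moved with each library left out, to 9 without WT replicate 1 (3.56% of all genes tested in that fit), 5 without WT replicate 2 (3.44%) and 36 without WT replicate 3 (5.7%). Without CD103KO replicate 1 it was 33 (7.21%), without CD103KO replicate 2 it was 4 (2.5%) and without CD103KO replicate 3 it was 9 (2.82%). In the fit without WT replicate 3, every WT library has Xist reads and no CD103KO library does. Genotype and Xist state cannot be told apart there. Other fits of the same counts passed few of the 43. DESeq2, a second count test, passed 3 (Eif2ak2, Mx2 and Ifi44), against 0.539% of its tested genes in that direction. limma-voom passed 0, against 0.215% of genes, and had 23 at an unadjusted p under 0.05, against 8.89% of genes in either direction. With no filter on low counts, edgeR passed 4 (Eif2ak2, Mx1, Mx2 and Oasl2), against 0.5% of genes.

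The spread inside each genotype was wide. Summed over the 43 genes, the WT libraries held 4275, 3918 and 5044 CPM, and the CD103KO libraries 4636, 5429 and 5372 CPM. WT replicate 3 therefore lay above CD103KO replicate 1, and the groups overlapped. The WT sums averaged 4412 ± 576 CPM (SD, n = 3). For CD103KO the average was 5146 ± 442 CPM (SD, n = 3). Within WT the median coefficient of variation of the 43 genes was 19.7%, against 6.59% over all tested genes, and within CD103KO it was 15.3% against 6.32%. From the lowest to the highest library a typical member spanned 1.62-fold, and a typical tested gene 1.21-fold.

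**Figure D1:**
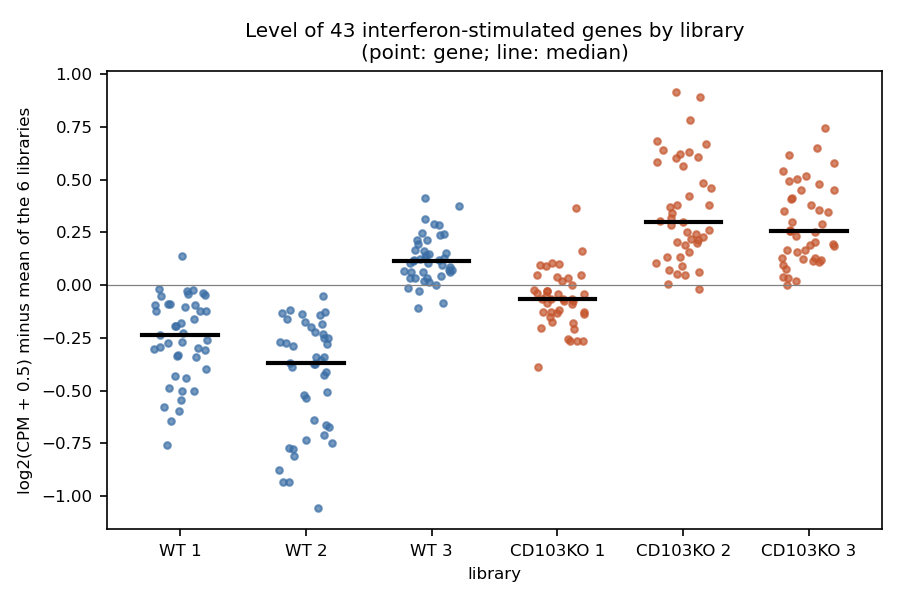
Level of each of the 43 genes in each library, as log2(CPM + 0.5) minus that gene's mean over the 6 libraries, with 1 point per gene and a line at the median. Medians from left to right were -0.24, -0.37 and 0.12 (WT), then -0.07, 0.30 and 0.25 (CD103KO), so that WT replicate 3 sits above CD103KO replicate 1.

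Every library had its own place in this order. WT replicate 2 was the lowest library for 38 of the 43 genes and WT replicate 1 for 4. CD103KO replicate 2 was the highest for 29, CD103KO replicate 3 for 9, WT replicate 3 for 4 and CD103KO replicate 1 for 1. For 35 of the 43 genes the 3 lowest libraries were WT replicates 1 and 2 together with CD103KO replicate 1, a property of 7.16% of all tested genes. This grouping, noticed after the values were seen, crosses the genotypes. The 8 exceptions were Eif2ak2, Mx2, Herc6, Trim25, Rnf213, Ifi44, Ifi47 and Ifi27l2a.

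For 40 of the 43 genes WT replicate 3 was closer to the average CD103KO level than to that of the other WT libraries, a position held in 52.8% of all tested genes. The 3 others were Ifitm3, Samd9l and Trim25. It was the third highest of the 6 libraries for 31 genes, the highest for 4 (Irf9, Bst2, Herc6 and Ifi35), the second for 3, the fourth for 4 and the fifth for 1. Its level exceeded the mean of WT replicates 1 and 2 by 0.02 (Samd9l) to 1.20 (Ifit3b) on the log2 scale, with a median of 0.43 over the 43 genes and -0.0019 over all tested genes. The matching differences from WT replicates 1 and 2 had a median of 0.23 for CD103KO replicate 1 and 0.51 for the mean of CD103KO replicates 2 and 3. Since WT replicates 1 and 2 are also the libraries with Xist reads, Xist state and these low levels cannot be told apart within WT, and CD103KO has no library with Xist reads. With a term for Xist reads, which sets CD103KO against WT replicate 3 alone, the median log2 fold change of the 43 genes was 0.05, and 10 of them were negative. In that fit 0 passed (edgeR, against 0.104% of all genes tested), and 1 had an unadjusted p under 0.05 (Ifi35, log2 fold change -0.20). CD103KO replicate 1 had Xist at 0.0272 CPM and a total count of 73257508, inside the range of the other libraries. The reason for its level was not tested.

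**Figure D2:**
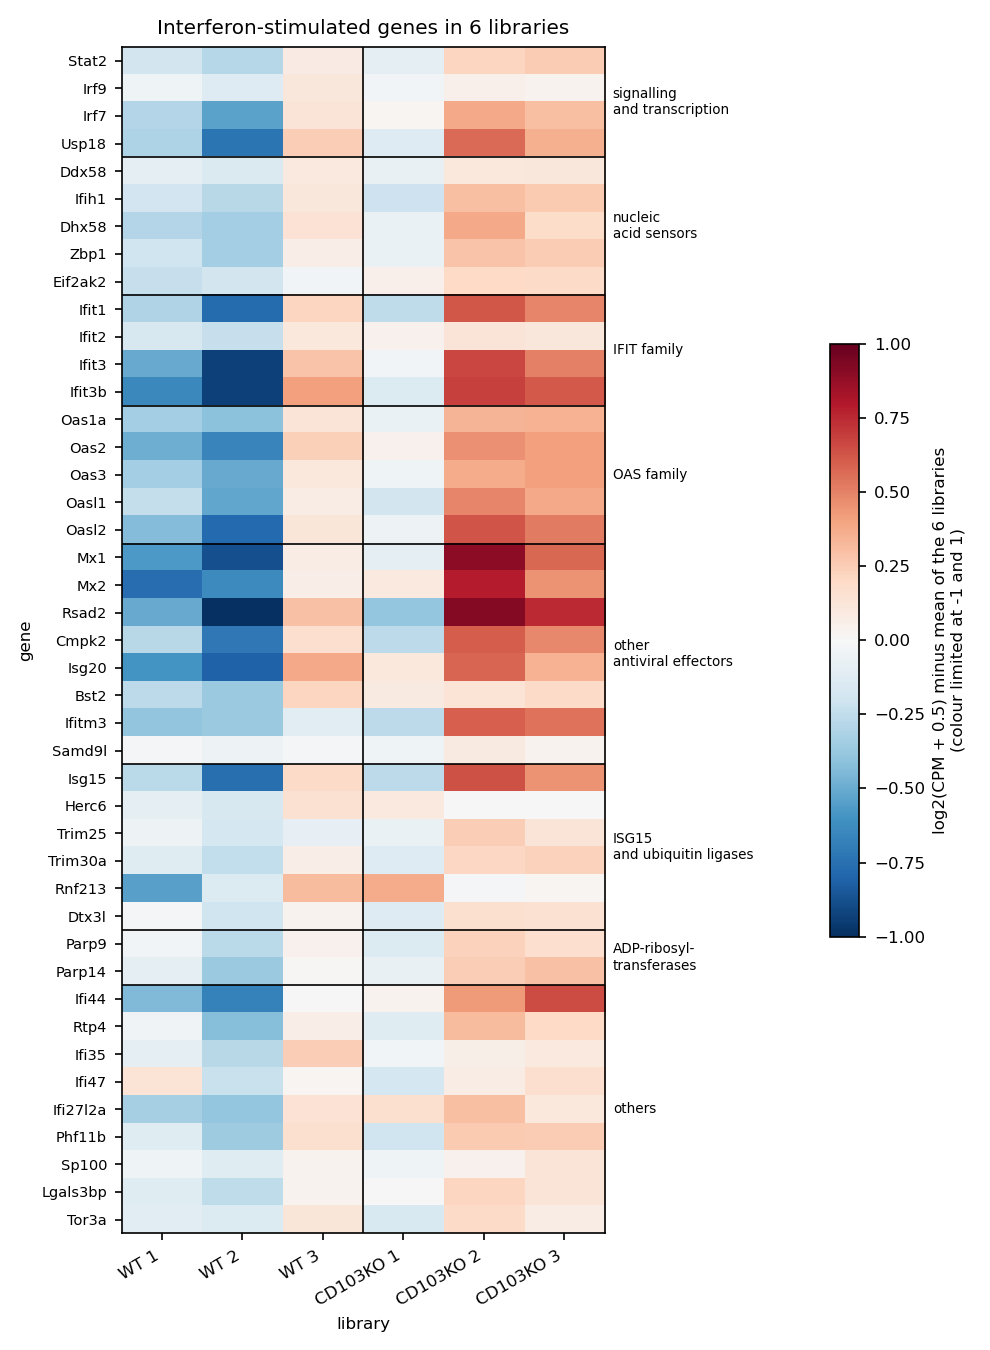
Heat map of the 43 genes (rows, grouped by role) in the 6 libraries (columns), coloured by log2(CPM + 0.5) minus the gene's mean over the libraries. WT replicates 1 and 2 are blue for nearly all genes, WT replicate 3 and CD103KO replicates 2 and 3 mostly red, and CD103KO replicate 1 pale. Rnf213 departs from this, with its highest level in CD103KO replicate 1.

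The start regions of several members show the letters that ISGF3 reads. RefSeq promoter windows (build GRCm38.p6, 250 bases before to 50 after a gene's start) were matched to 32 of the 43 genes, in 38 windows. They were searched on both strands for GAAA, any 2 bases and GAAA again, the core of the interferon-stimulated response element. It was found for 15 of the 32 genes (46.9%), against 3.99% of the 27025 genes with a window. A second motif, TTC, any 3 bases and GAA, the gamma-activated site of interferon-gamma signalling, was found for 7 of the 32 (21.9%), against 9.55%. Of the examples below, the first 6 carry the response element core, in capitals, and differ in how many copies they hold. The last holds no exact copy in its window, and elements outside the window or with other letters were not searched for. Its gene spanned 15.4 to 41.7 CPM between libraries, beside 30.2 to 79.98 CPM for Isg15. Each is printed 5′ to 3′ on the gene's strand, and a match describes the letters only.
Isg15, chr4:156200769-156201068, minus strand, 3 overlapping matches: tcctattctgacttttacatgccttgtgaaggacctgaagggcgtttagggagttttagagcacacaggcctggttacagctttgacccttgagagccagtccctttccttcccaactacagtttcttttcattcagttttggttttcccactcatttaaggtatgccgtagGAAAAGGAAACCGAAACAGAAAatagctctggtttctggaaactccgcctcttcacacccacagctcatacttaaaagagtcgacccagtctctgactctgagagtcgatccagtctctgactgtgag
Ifit1, chr19:34640639-34640938, plus strand, 2 matches: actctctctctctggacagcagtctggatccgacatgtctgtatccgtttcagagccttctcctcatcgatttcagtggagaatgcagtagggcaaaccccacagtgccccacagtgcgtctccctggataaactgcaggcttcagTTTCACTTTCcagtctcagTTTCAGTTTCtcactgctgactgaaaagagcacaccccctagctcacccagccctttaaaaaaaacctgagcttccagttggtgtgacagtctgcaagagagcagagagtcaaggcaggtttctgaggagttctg
Ifit3, chr19:34583279-34583578, plus strand, 2 matches: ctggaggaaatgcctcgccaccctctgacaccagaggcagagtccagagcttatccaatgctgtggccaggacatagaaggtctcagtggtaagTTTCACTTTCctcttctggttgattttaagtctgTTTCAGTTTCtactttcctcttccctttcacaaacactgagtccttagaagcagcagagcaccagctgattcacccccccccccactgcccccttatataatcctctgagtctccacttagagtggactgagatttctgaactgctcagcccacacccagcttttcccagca
Ifit3b, chr19:34607707-34608006, plus strand, 2 matches: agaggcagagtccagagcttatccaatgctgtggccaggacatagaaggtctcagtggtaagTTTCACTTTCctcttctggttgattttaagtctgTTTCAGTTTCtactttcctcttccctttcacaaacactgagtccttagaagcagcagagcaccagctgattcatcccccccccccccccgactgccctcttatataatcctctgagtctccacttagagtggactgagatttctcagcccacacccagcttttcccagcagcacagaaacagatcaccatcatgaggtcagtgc
Oas3, chr5:120777610-120777909, minus strand, 1 match: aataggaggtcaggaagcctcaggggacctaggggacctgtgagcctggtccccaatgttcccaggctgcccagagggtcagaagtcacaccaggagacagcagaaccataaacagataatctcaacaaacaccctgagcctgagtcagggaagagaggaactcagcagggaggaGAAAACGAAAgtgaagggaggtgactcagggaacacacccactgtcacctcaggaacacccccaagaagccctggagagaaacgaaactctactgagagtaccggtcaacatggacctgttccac
Rsad2, chr12:26456403-26456702, minus strand, 1 match: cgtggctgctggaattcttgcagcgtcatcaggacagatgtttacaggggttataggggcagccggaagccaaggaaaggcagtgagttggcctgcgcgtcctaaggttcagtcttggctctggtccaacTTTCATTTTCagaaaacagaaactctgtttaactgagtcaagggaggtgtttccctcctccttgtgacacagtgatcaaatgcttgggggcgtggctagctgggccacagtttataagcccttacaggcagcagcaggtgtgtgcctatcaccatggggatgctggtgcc
Oasl2, chr5:114896684-114896983, plus strand, 0 matches: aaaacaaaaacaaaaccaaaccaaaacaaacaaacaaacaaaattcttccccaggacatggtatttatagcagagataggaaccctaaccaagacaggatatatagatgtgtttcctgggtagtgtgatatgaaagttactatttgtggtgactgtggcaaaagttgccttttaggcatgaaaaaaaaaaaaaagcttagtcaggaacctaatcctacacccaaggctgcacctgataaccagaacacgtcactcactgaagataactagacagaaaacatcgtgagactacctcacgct

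Ifit3 and Ifit3b, neighbours on chromosome 19, hold their 2 matches at the same spacing of 34 bases. The matches begin 156 and 122 bases before the start of Ifit3, and 188 and 154 bases before that of Ifit3b. The 15 genes with a match had a median log2 fold change of 0.42 and the 17 genes with a window but no match 0.21. Both sets held members at either end, with ranges of 0.09 to 1.23 and 0.04 to 0.92. These medians describe the list and carry no test.

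Among the signalling and transcription genes (Stat2, Irf9, Irf7 and Usp18), the pathway's own amplifier and brake varied more than the ISGF3 subunits. Irf7, the transcription factor that amplifies interferon production (ENSMUSG00000025498.15, chr7:141262706-141266481, minus strand, GRCm38), was at 61.4, 51.8 and 82.3 CPM in WT and 76.3, 98.2 and 92.9 CPM in CD103KO. Only WT replicate 3 crossed into the CD103KO range, and the genotypes differed by 0.45 on the log2 scale (SE 0.16, 95% interval 0.10 to 0.80, adjusted p = 0.461, edgeR). Stat2, the ISGF3 subunit that carries the transactivation domain, was at 47.6, 44.2 and 57.4 CPM in WT and 50.9, 62.9 and 64.5 CPM in CD103KO. The groups overlapped (log2 fold change 0.26, SE 0.11, adjusted p = 0.566, edgeR). Irf9, the DNA-binding subunit, was at 128, 121 and 144 CPM in WT and 129.7, 137 and 136 CPM in CD103KO. It was highest in WT replicate 3, and its difference between genotypes, 0.04 on the log2 scale (95% interval -0.10 to 0.18), is the smallest of the 43. Usp18, which removes ISG15 from proteins and blocks IFNAR2 signalling, had 30.6, 22.6 and 45.03 CPM in WT and 34.7, 56.3 and 48.7 CPM in CD103KO.

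The nucleic acid sensors covered cytosolic RNA receptors (Ddx58, which encodes RIG-I, Ifih1, which encodes MDA5, and Dhx58, their regulator LGP2), the Z-form nucleic acid sensor Zbp1, and Eif2ak2, the RNA-activated kinase PKR that stops translation. Eif2ak2 (ENSMUSG00000024079.4, chr17:78852564-78882573, minus strand, GRCm38) was at 38.6, 39.8 and 44.3 CPM in WT and 46.8, 51.9 and 51.6 CPM in CD103KO. Its groups did not overlap, and it had the smallest p of the 43 genes (log2 fold change 0.29, SE 0.07, adjusted p = 0.240, edgeR; 0.0126 with DESeq2). Over all tested genes, 6.82% had groups that did not overlap with CD103KO higher, and 3 of the 43 members did (Eif2ak2, Mx2 and Ifi44), a share close to that background. Zbp1 was at 121, 109 and 145 CPM in WT and 132, 168 and 165 CPM in CD103KO. There, WT replicate 3 exceeded CD103KO replicate 1 (log2 fold change 0.31, SE 0.12, adjusted p = 0.490, edgeR). Ddx58 was at 159.7, 154 and 182 CPM in WT and 161, 183 and 184 CPM in CD103KO. WT replicate 3 stood beside CD103KO replicates 2 and 3, and CD103KO replicate 1 beside the lower WT libraries (log2 fold change 0.09, 95% interval -0.07 to 0.26, adjusted p = 0.749, edgeR). With the Xist term it was -0.05. Ifih1 and Dhx58 had log2 fold changes of 0.24 and 0.33.

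**Figure D3:**
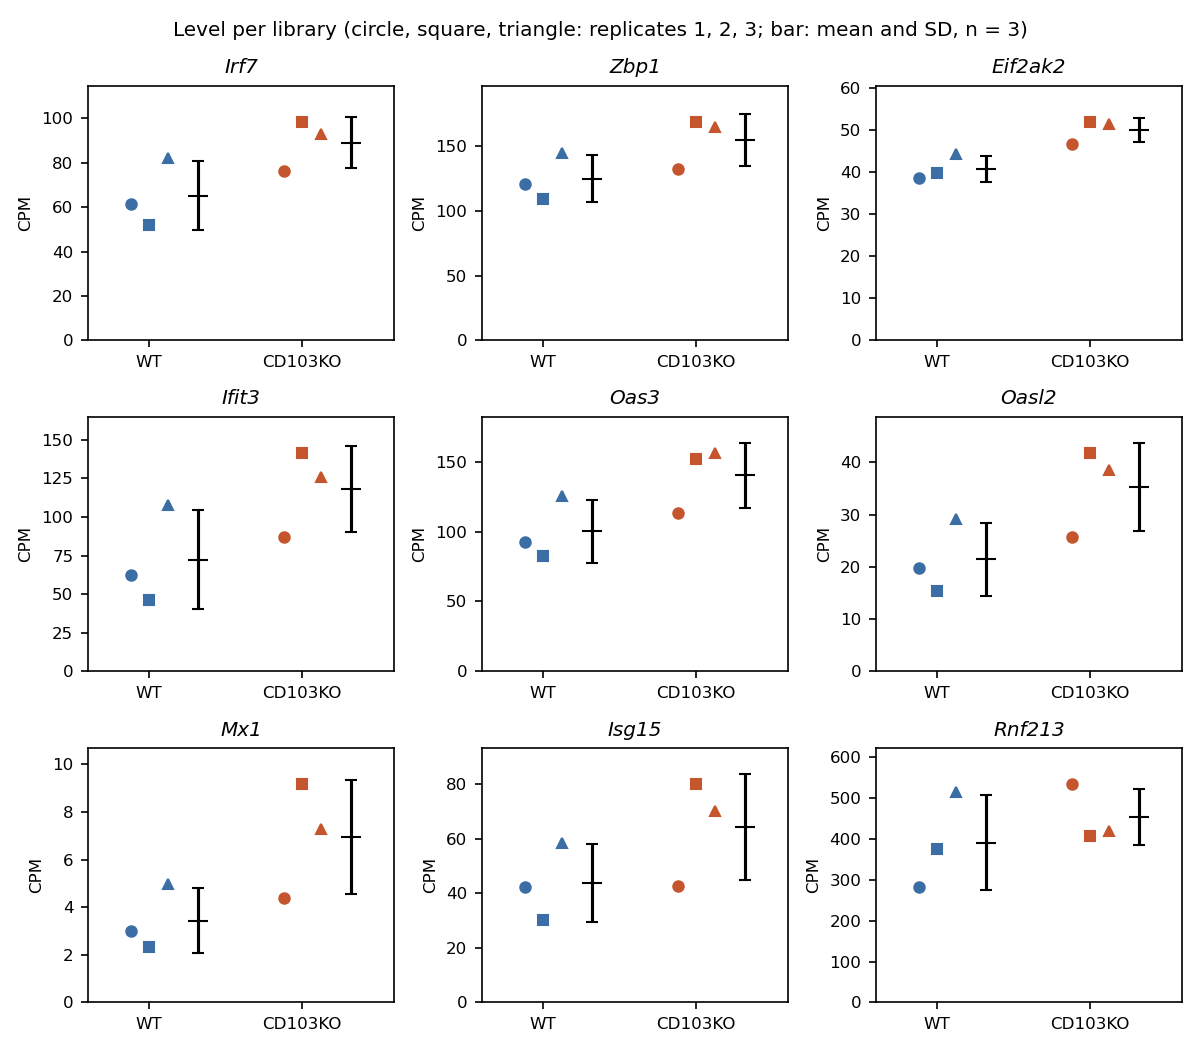
CPM of 9 genes in the WT (blue) and CD103KO (orange) libraries, with circles, squares and triangles for replicates 1, 2 and 3 and bars for the mean and SD of 3 libraries. In 7 of the panels the WT triangle lies above the CD103KO circle; Eif2ak2 has separate groups (at most 44.3 against at least 46.8 CPM), and in Rnf213 the CD103KO circle is the highest point.

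The IFIT genes encode proteins that bind foreign RNA ends and hinder its translation. They lie together on chromosome 19 (GRCm38), with Ifit3 at 34583531 to 34588731. Ifit3 was at 62.4, 46.2 and 108 CPM in WT and 87.1, 141 and 126 CPM in CD103KO. WT replicate 3 was 1.00 above WT replicates 1 and 2 on the log2 scale, more than the difference between the genotypes of 0.71 (SE 0.28, 95% interval 0.07 to 1.35, adjusted p = 0.520, edgeR). With the Xist term that difference was 0.13. Ifit3b, its neighbour, was at 9.64, 7.82 and 20.6 CPM in WT and 14.0, 25.0 and 23.8 CPM in CD103KO. Transcripts of the 2 genes are 97.8% identical over 1700 bases and had counts that were not whole in every library, so the division of reads between them is uncertain. Their sum was 72.03, 54.0 and 129 CPM in WT and 101, 166 and 149.7 CPM in CD103KO, the same order as for Ifit3 alone. Ifit1 followed that order too, with 70.5, 50.9 and 101 CPM in WT and 73.0, 135 and 123 CPM in CD103KO. Ifit2 was flatter, at 57.3, 54.5 and 69.05 CPM in WT and 65.9, 70.3 and 69.6 CPM in CD103KO (log2 fold change 0.19, SE 0.08, adjusted p = 0.569, edgeR; -0.012 with the Xist term).

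The OAS genes encode synthases of 2′-5′ oligoadenylate, which activates RNase L, and their inactive relatives. All 5 are on chromosome 5, and all 5 had an unadjusted p under 0.05 (edgeR), with log2 fold changes of 0.42 to 0.72, where 4.53% of all tested genes had such a p in that direction. Without WT replicate 1 there were 2, without WT replicate 2 there was 1, without CD103KO replicate 2 there were 0 and without CD103KO replicate 3 there was 1. All 5 kept it without WT replicate 3 or CD103KO replicate 1, and 0 did with the Xist term. Of the role groups this was the only one in which each member did so, and for each of the 5 the 3 lowest libraries were WT replicates 1 and 2 and CD103KO replicate 1. Oasl2 (114896936 to 114912234) was at 19.7, 15.4 and 29.1 CPM in WT and 25.8, 41.7 and 38.5 CPM in CD103KO. WT replicate 3 lay between CD103KO replicate 1 and the other two CD103KO libraries (log2 fold change 0.72, SE 0.24, adjusted p = 0.440, edgeR; 0.28 with the Xist term). Oas3 (120753098 to 120777661) was at 92.6, 82.4 and 126 CPM in WT and 114, 152 and 156 CPM in CD103KO, again with WT replicate 3 above CD103KO replicate 1 (log2 fold change 0.49, SE 0.16, adjusted p = 0.448, edgeR). Oas1a, Oas2 and Oasl1 had 12.1 to 17.7, 2.80 to 5.65 and 12.2 to 18.7 CPM in WT, and 15.4 to 20.8, 4.89 to 6.68 and 15.6 to 25.0 CPM in CD103KO.

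Among the other antiviral effectors were the members with the widest spans. Mx1 and Mx2 belong to a family of dynamin-like GTPases that trap viral components in other strains and species. C57BL/6 mice are known to carry defective alleles, and the annotation lists Mx2 as a polymorphic pseudogene. Both RNAs were scarce. Mx1 was at 2.99, 2.34 and 4.98 CPM in WT and 4.40, 9.16 and 7.28 CPM in CD103KO (log2 fold change 1.02, SE 0.31, adjusted p = 0.434, edgeR). WT replicate 3 was again above CD103KO replicate 1. Mx2 was at 1.26, 1.41 and 2.60 CPM in WT and 2.68, 4.61 and 3.56 CPM in CD103KO. Its groups were separated by the small step between WT replicate 3 and CD103KO replicate 1 (log2 fold change 1.04, SE 0.29, adjusted p = 0.393, edgeR; 0.0180 with DESeq2), and with the Xist term the difference was 0.47. Their transcripts are 94.8% identical over 921 bases and shared fractional counts in 5 libraries. Summed, they were at 4.25, 3.75 and 7.59 CPM in WT and 7.08, 13.8 and 10.8 CPM in CD103KO, and the groups then overlapped.

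Rsad2 (ENSMUSG00000020641.16, chr12:26442746-26456452, minus strand, GRCm38) encodes viperin, an enzyme that makes a chain-terminating nucleotide, and its neighbour Cmpk2 on chromosome 12 encodes the mitochondrial kinase that supplies the precursor. Rsad2 was at 13.8, 9.24 and 24.3 CPM in WT and 15.0, 37.7 and 33.4 CPM in CD103KO. That was the widest span of the 43 genes, 4.08-fold from WT replicate 2 to CD103KO replicate 2, and CD103KO replicate 1 lay 1.22 below the other two CD103KO libraries on the log2 scale. Cmpk2 had the same order of libraries, at 27.7, 20.3 and 37.7 CPM in WT and 27.9, 51.4 and 47.04 CPM in CD103KO. Ifitm3, which blocks viral entry at the endosome, had the largest log2 fold change, 1.23, on a low level of 0.280 to 0.453 CPM in WT and 0.354 to 1.06 CPM in CD103KO, and its adjusted p was 0.465 (edgeR). Isg20, an exonuclease, and Bst2, the virion tether tetherin, had 15.6 to 36.03 and 56.4 to 84.8 CPM in WT, and 29.7 to 41.7 and 77.8 to 83.6 CPM in CD103KO. For Bst2, WT replicate 3 was the highest of the 6 libraries. Samd9l, a translation inhibitor, hardly varied, at 129, 126 and 129.9 CPM in WT and 127, 139 and 134 CPM in CD103KO (log2 fold change 0.06, 95% interval -0.04 to 0.15, adjusted p = 0.738, edgeR).

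Isg15, the gene of the ubiquitin-like modifier itself (ENSMUSG00000035692.6, chr4:156199424-156200818, minus strand, GRCm38), was at 42.4, 30.2 and 58.6 CPM in WT and 42.6, 79.98 and 70.2 CPM in CD103KO. CD103KO replicate 1 was level with WT replicate 1. The genotypes differed by 0.56 on the log2 scale (SE 0.26, 95% interval -0.04 to 1.15), short of the threshold (adjusted p = 0.593, edgeR). Of the ligases, Trim25, which ubiquitinates RIG-I, was at 170.1, 156 and 166 CPM in WT and 169, 209.9 and 193 CPM in CD103KO. WT replicate 3 sat with the other WT libraries here, and the difference (log2 fold change 0.22, SE 0.07, adjusted p = 0.458, edgeR) was 0.20 with the Xist term. Rnf213, a giant ubiquitin ligase and ATPase, was at 284, 375 and 514 CPM in WT and 533, 408 and 419.6 CPM in CD103KO. Its highest libraries were CD103KO replicate 1 and WT replicate 3 (log2 fold change 0.21, 95% interval -0.21 to 0.64, adjusted p = 0.777, edgeR; -0.18 with the Xist term). Herc6, the mouse ISG15 ligase, had the same 2 highest libraries, at 54.9, 52.2 and 65.02 CPM in WT and 62.6, 58.7 and 58.5 CPM in CD103KO. Rnf213 and Herc6 were the only members of the 43 with that pair at the top. Trim30a, a TRIM protein that restrains inflammatory signalling, and Dtx3l had log2 fold changes of 0.21 and 0.13.

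The ADP-ribosyltransferase Parp9 forms a complex with the ligase encoded by Dtx3l, and the 2 genes overlap head to head on chromosome 16 by 682 bases on opposite strands. The libraries are stranded, but whether the counting used the strand to tell their reads in that stretch apart is not stated. Parp9 was at 146, 123 and 153 CPM in WT and 135, 175 and 167 CPM in CD103KO (log2 fold change 0.18, SE 0.10, adjusted p = 0.685, edgeR). Dtx3l had 271, 239 and 281 CPM in WT and 251, 306 and 305 CPM in CD103KO. In both genes CD103KO replicate 1 was lower than WT replicates 1 and 3. Parp14, a mono-ADP-ribosyltransferase encoded nearby, was at 229.6, 189 and 248 CPM in WT and 233, 290.4 and 299.96 CPM in CD103KO (log2 fold change 0.31, SE 0.11, adjusted p = 0.497, edgeR).

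In the remaining 9 genes the median span between libraries was 1.44-fold, against 1.62-fold over the 43 and 1.21-fold over all tested genes. Ifi44, a cytoplasmic interferon-induced protein gene, was at 1.39, 1.11 and 2.06 CPM in WT and 2.12, 2.94 and 3.52 CPM in CD103KO. The groups touched without overlapping, 2.06 against 2.12 CPM (log2 fold change 0.92, SE 0.26, adjusted p = 0.395, edgeR; 0.0482 with DESeq2; 0.47 with the Xist term). Lgals3bp, a secreted glycoprotein gene, was at 232, 213 and 259 CPM in WT and 253, 293 and 277 CPM in CD103KO (log2 fold change 0.23, SE 0.08, adjusted p = 0.454, edgeR). Sp100, a nuclear body component, was at 704, 668 and 741 CPM in WT and 703, 748 and 790.5 CPM in CD103KO (log2 fold change 0.08, 95% interval -0.04 to 0.21, adjusted p = 0.698, edgeR). Ifi27l2a, a mitochondrial interferon-induced protein gene, was at 114, 109 and 159 CPM in WT and 160.4, 177 and 154 CPM in CD103KO. Here CD103KO replicate 1 was level with the other CD103KO libraries, and WT replicate 3 with all 3 of them. Without WT replicate 3 this gene passed (log2 fold change 0.56, adjusted p = 0.0143, edgeR), as did Bst2 (0.46, adjusted p = 0.0176) and Isg20 (1.08, adjusted p = 0.0239), against 0.379% of tested genes in that fit. Genotype and Xist state cannot be told apart in that fit. With the Xist term the log2 fold changes of these genes were 0.04 (Ifi27l2a), -0.08 (Bst2) and -0.02 (Isg20). The other 5, Rtp4, Ifi35, Ifi47, Phf11b and Tor3a, had log2 fold changes of 0.04 to 0.27 with unadjusted p of 0.0859 or more (edgeR).

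**Figure D4:**
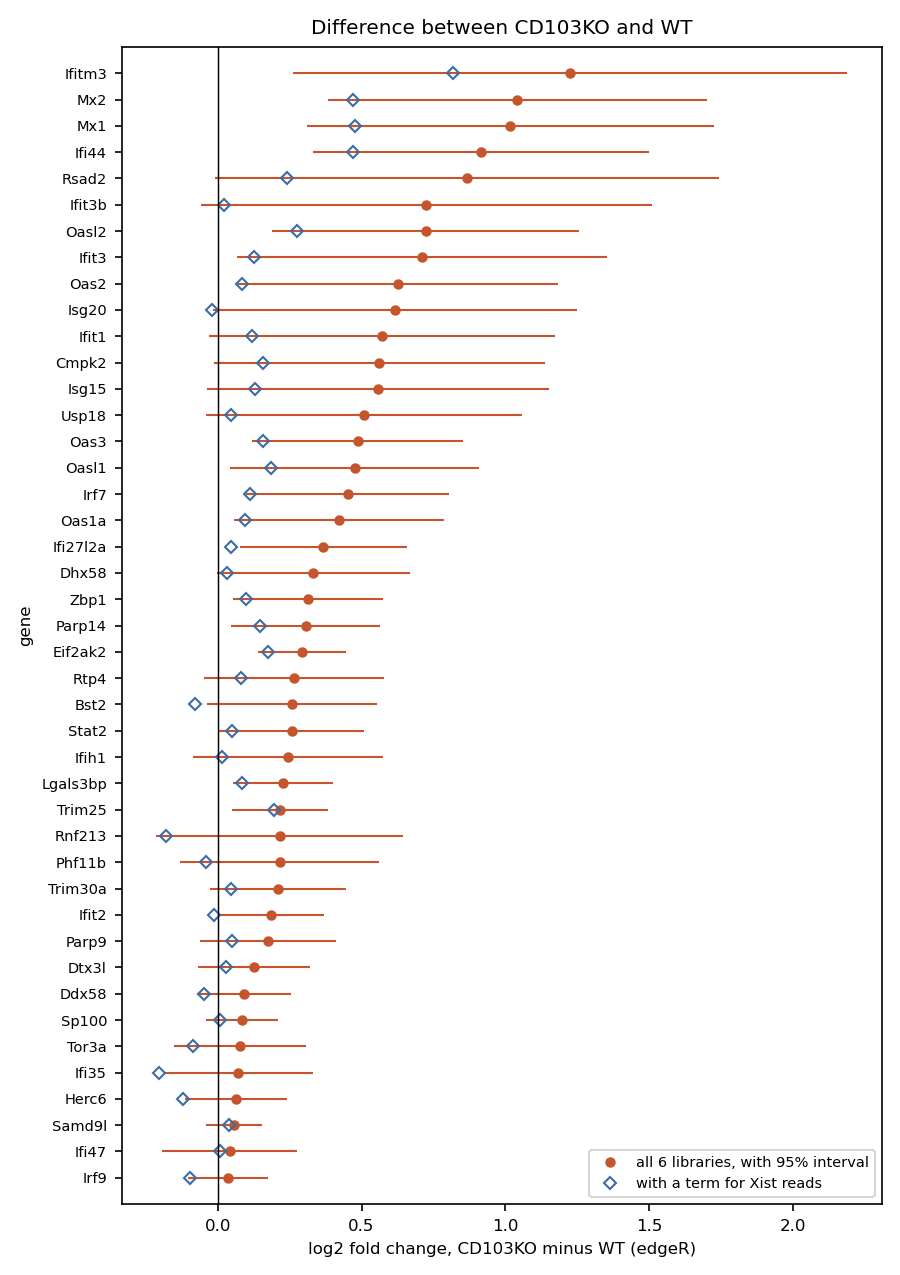
Log2 fold change of CD103KO minus WT for each of the 43 genes (edgeR), with 95% intervals from the fit of all 6 libraries (circles) and the value with a term for Xist reads (open diamonds). All 43 circles lie above 0, 19 intervals exclude 0 before adjustment, and 10 diamonds lie below 0.

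Per length, the members spanned a wide range. In mean CPM per kilobase of annotated exon over the 6 libraries, Ifi27l2a (314), Ifi47 (154) and Sp100 (96.0) were highest and Ifi44 (0.357), Mx2 (0.743) and Ifitm3 (0.843) lowest. Among the 14 members with a log2 fold change above 0.5 were the 5 of lowest level per length (Ifi44, Mx2, Ifitm3, Oas2 and Mx1), but also Ifit3 (54.5) and Isg15 (71.4). The 43 genes lie on 15 chromosomes. Of them, 6 are on chromosome 11, where Itgae is, at 15.9 (Trim25) to 46.2 Mb (Rnf213) from it, with a median log2 fold change of 0.22, against 0.37 for the 37 others. These medians carry no test. Of the 43 genes, 12 had counts that were not whole in at least 1 library, 8 of them in all 6, as counting with RSEM gives where reads match more than 1 transcript.

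As a list, the pathway upstream of these genes did not share their common direction. Of 52 upstream genes found in the table, 33 were expressed highly enough to be tested. Of the 18 type I interferon ligand genes, 16 had 0 counts in every library, which allows a level of up to 0.0313 to 0.0440 CPM (3 counts per library), and the others summed to at most 6.75 counts in any library. Ifng, the type II interferon, had 4 to 43 counts per library. The receptor chains Ifnar1 and Ifnar2 were at 118 to 123 and 70.5 to 76.7 CPM in WT and 119.6 to 123 and 70.4 to 74.5 CPM in CD103KO, with log2 fold changes of 0.01 (SE 0.04, adjusted p = 0.946, edgeR) and -0.03 (SE 0.05, adjusted p = 0.873, edgeR). Jak1 and Tyk2, the receptor kinases, had log2 fold changes of 0.07 and 0.0020. Over the 33 tested upstream genes, 13 were higher and 20 lower in CD103KO, with a median of -0.01, and 0 passed (edgeR; at an unadjusted p under 0.05, 3 were higher and 2 lower). For 4 of the 33 (12.1%) the 3 lowest libraries were WT replicates 1 and 2 and CD103KO replicate 1, against 7.16% of all tested genes. The smallest p belonged to Ifngr2, a chain of the interferon-gamma receptor, at 32.4 to 35.7 CPM in WT and 28.3 to 30.02 CPM in CD103KO (log2 fold change -0.22, SE 0.06, adjusted p = 0.367, edgeR). Next was Tlr7, an endosomal RNA receptor, at 19.6, 15.7 and 24.4 CPM in WT and 24.0, 31.4 and 28.4 CPM in CD103KO (log2 fold change 0.49, SE 0.15, adjusted p = 0.434, edgeR). WT replicate 3 was again the highest WT library there, above CD103KO replicate 1.

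A separate list of 58 interferon-induced genes outside the 43, many of them also driven by interferon-gamma, held 55 tested genes. Of these, 43 were higher in CD103KO, with a median log2 fold change of 0.10, and 0 passed (edgeR). An unadjusted p under 0.05 was reached by 10 that were higher and 1 that was lower. That count of 10 was 24 without WT replicate 3 and 3 without either WT replicate 2 or CD103KO replicate 3, and with the Xist term it was 1, with a median of -0.0020. The 3 lowest libraries were WT replicates 1 and 2 and CD103KO replicate 1 for 34.5% of the 55, between the 81.4% of the 43 members and the 7.16% of all tested genes. Ddx60, a helicase that aids RIG-I, was at 42.9, 47.6 and 43.6 CPM in WT and 52.1, 60.8 and 52.9 CPM in CD103KO, with groups that did not overlap (log2 fold change 0.31, SE 0.07, adjusted p = 0.240, edgeR; 0.00947 with DESeq2). Unlike the 43 members as a whole, WT replicate 3 lay among the WT libraries. Ly6a, which encodes the surface protein Sca-1, was at 26.8, 20.6 and 36.5 CPM in WT and 38.6, 49.8 and 50.2 CPM in CD103KO (log2 fold change 0.73, SE 0.19, adjusted p = 0.312, edgeR). Its groups did not overlap either, and it passed without WT replicate 3 (adjusted p = 0.0457, edgeR), where genotype and Xist state cannot be told apart.

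Markers of cells that could carry interferon-stimulated RNA were read in the same libraries. Of 6 plasmacytoid dendritic cell markers, Siglech and Klk1 were at 0 in all libraries and Cox6a2 at no more than 0.0418 CPM, while the list's sum of 340 to 408 CPM in WT and 392 to 436 CPM in CD103KO came mainly from Ccr9 and Bst2, which CD8 T cells also express. Myeloid and conventional dendritic cell markers (7 of 9 tested) summed to 7.21, 4.52 and 4.50 CPM in WT and 4.93, 4.82 and 6.06 CPM in CD103KO. Markers of memory-like CD8 T cells (6 of 6 tested, 0 passing with edgeR) summed to 343, 314 and 381 CPM in WT and 373, 393 and 420.5 CPM in CD103KO. Most of the sum was Il2rb, the shared interleukin-2 and interleukin-15 receptor chain, at 265, 241 and 248 CPM in WT and 262, 295 and 317 CPM in CD103KO, with WT replicate 1 the highest of its group. Of the genes behind the sort gate, Ly6c2 had 16.6 to 30.7 CPM in the WT libraries, highest in replicate 3, and 31.8 to 39.7 CPM in the CD103KO libraries (log2 fold change 0.65, adjusted p = 0.430, edgeR). Cxcr3 was at 3.18, 3.30 and 7.66 CPM in WT and 8.80, 5.51 and 6.38 CPM in CD103KO (0.55, adjusted p = 0.683, edgeR). Both were higher in WT replicate 3 than in the other two WT libraries, as were Eomes and Cd44. The chemokine gene Ccl5 stood at 34.9 CPM in WT replicate 3 and at 2.91 to 6.46 CPM elsewhere, so that its log2 fold change was negative (-1.36, adjusted p = 0.675, edgeR). The part of such cells in the interferon-stimulated gene levels was not tested.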

How the data were processed

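Per the labels' protocols, RNA was purified on columns and made into stranded mRNA libraries. The tools named in the submitters' processing notes are bcl2fastq (2.20), cutadapt (1.18), STAR (2.7.0f) and RSEM, with builds GRCm38 and mm10. For the RSEM version, annotation release and strand setting the sources used here give nothing. As deposited, the values are expected counts per gene, not normalized, of which 6.48% were not whole. They were rounded before testing.

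All 55450 gene identifiers matched GENCODE M21. CD103KO was compared with WT over the whole table with edgeR 4.0.16 in R 4.3.3: filterByExpr (minimum count 10), TMM, a quasi-likelihood F test with genotype as its sole term, and Benjamini-Hochberg adjustment (0.05, 13470 genes). TMM-scaled library sizes gave the CPM (1 count is 0.0104 to 0.0147 CPM), and log2 levels have a pseudocount of 0.5. Intervals are 95% from the fit. Floors of 3 counts cover counting error only. The fit was tested on simulated data.

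The members and gene lists were chosen with earlier results of these data known. Named in full were, per role, members passing, the 2 of smallest p and the most abundant. Tried as alternatives were other size factors (RLE, upper-quartile), no filter, 1 CPM in 3 libraries, DESeq2 1.42.0, limma-voom 3.58.1, the replicate block, each library left out, a term for libraries above 1 CPM of Xist, and only libraries below it. Transcript identity used megablast (BLAST+ 2.17.0, at least 90% over 300 bases). Of the lists, Mb21d1, Mnda and Pyhin1 were not matched by symbol. 1 further gene of the upstream list is counted in it but not reported here by name.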

Additional observations from a re-analysis of the deposited data

How the results depend on the processing

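All 43 log2 fold changes stayed positive with RLE and upper-quartile factors, no filter, DESeq2, limma-voom, and the replicate block. With the 1 CPM filter 42 genes were tested and all were positive. The count of members passing, 0 with all libraries, was 4 with no filter (Eif2ak2, Mx1, Mx2 and Oasl2, against 0.5% of genes), 3 with DESeq2, and 0 to 3 with 1 library left out. At an unadjusted p under 0.05 it was 32 with no filter, 4 to 36 with 1 library left out, and 1, lower in CD103KO, both with the Xist term and with only the libraries without Xist reads, where WT replicate 3 is the lone WT library, assumed to vary like the CD103KO libraries. The cause of these shifts was not tested. The 32 with no filter stood beside 6.98% of all genes tested in that fit, in either direction. The median of the 43 log2 fold changes was 0.31 with all libraries, 0.22 to 0.46 with 1 library left out, and 0.05 in both Xist settings. The spread of the list's level between replicates was an SD of 0.26. Within WT that spread includes the difference between libraries with and without Xist reads, so it cannot judge the move in the Xist settings.

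With the Xist term, and with only libraries without Xist reads, the sign turned for Ddx58 (-0.048 and -0.045), Ifit2 (-0.012 and -0.0091), Irf9 (-0.10 and -0.10), Rnf213 (-0.18 and -0.18), Bst2 (-0.078 and -0.075), Herc6 (-0.12 and -0.12), Ifi35 (-0.20 and -0.20), Isg20 (-0.021 and -0.018), Phf11b (-0.042 and -0.039), Tor3a (-0.085 and -0.082) and Ifnar2 (0.044 and 0.047). With 1 library left out, Irf9 ran from -0.019 (without WT replicate 2) to 0.107, and Ifnar1 from -0.0035 (without WT replicate 3) to 0.027. Without WT replicate 2, 39 of the 43 members were positive, and Herc6 (-0.0039), Ifi35 (-0.044) and Ifi47 (-0.054) were negative beside Irf9. There were 42 positive without CD103KO replicate 2 (Tor3a at -0.0046) and 42 without CD103KO replicate 3 (Ifi47 at -0.036). All 43 were positive with any other library left out. Tyk2, near 0, was -0.0053 with upper-quartile factors, -0.0011 with no filter, -0.00031 with the 1 CPM filter, -0.00053 with the replicate block, and -0.010 to 0.012 with 1 library left out, below 0 without WT replicate 3, CD103KO replicate 1 or CD103KO replicate 2.

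Same-numbered libraries showed no clear pairing: their deviations from the group means correlated at -0.28, -0.03 and 0.03 across tested genes. Not every library correlated best with its own number. The groups hold 3 libraries each and only WT carries the Xist difference, so these values cannot tell whether a number marks a shared preparation. With the replicate number as a block 0 members passed. In that fit 28 had an unadjusted p under 0.05, against 7.17% of all genes tested, in either direction. Ifitm3, with 21 to 75 counts per library, is the member that depth limits most.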
